A study of Mus musculus with 12 samples.

Results

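The TNF superfamily pairs ligands with receptors. The ligands, whose symbols begin with Tnfsf, are trimeric proteins held in the membrane or shed from it. The receptors, whose symbols begin with Tnfrsf, either carry a death domain in their cytoplasmic tail and can start cell death, or bind TRAF adaptor proteins and pass the signal on to NF-kB and MAP kinases, while some lack a working tail and act as decoys. In the myeloid lineage the family is best known for TNF and its receptors, which act on granulocyte and macrophage activation and survival. All rows of the deposited count table whose symbol begins with Tnfsf or Tnfrsf followed by a digit were taken, 31 of 24411 symbols, of which 11 are ligands and 20 are receptors. Genes of the family with other symbols, such as Tnf, Ltb and Fas, are described apart.

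RNA was sequenced from HoxB8 cells, mouse progenitor cells that proliferate while an estrogen-dependent Hoxb8 is active and differentiate when estrogen is withdrawn. All groups had been kept without estrogen for 24 h, and each carried a pMIG and a pMICH vector, so the control cells were transduced with empty vectors as well. There were 4 groups of 3 libraries. Asxl1-MT2/T618I cells expressed a truncated Asxl1, called Asxl1-MT2, together with CSF3R T618I, a mutant form of the G-CSF receptor, which drives granulocyte production. Asxl1-MT2/Empty cells expressed the truncated Asxl1 alone, Empty/T618I cells the mutant receptor alone, and Empty/Empty cells neither. Both proteins were overexpressed beside the cells' own genes, and the labels do not say whether the 3 libraries within a group were grown as separate cultures. The spread behind the p-values is that of the libraries and may be technical.

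Library totals lay between 9341984 and 10252291 counts. Asxl1 averaged 1004 ± 83.6 CPM (counts scaled to a common library total) in Asxl1-MT2/T618I, 1743 ± 79.8 CPM in Asxl1-MT2/Empty, 148 ± 16.9 CPM in Empty/T618I and 119 ± 4.52 CPM in Empty/Empty (SD, n = 3 each). Socs3, a feedback inhibitor that the receptor induces, averaged 229 CPM in Asxl1-MT2/T618I, 10.7 CPM in Asxl1-MT2/Empty, 165 CPM in Empty/T618I and 12.7 CPM in Empty/Empty. The library titled Empty/Empty 3 has a genotype label that names T618I, but Socs3 lay between 11.9 and 13.8 CPM in the Empty/Empty libraries. The groups follow the titles here. All 9 markers of myeloid progenitors, the labelled cells, were detected in each group, but their summed level was lower in both T618I groups, at 14983 to 19547 CPM in Asxl1-MT2/T618I, 38798 to 43356 CPM in Asxl1-MT2/Empty, 16660 to 19831 CPM in Empty/T618I and 34688 to 43367 CPM in Empty/Empty. By edgeR, 7 of the 9 fell and 0 rose in Empty/T618I against Empty/Empty, beside 15.9% and 17.6% of all genes. In Asxl1-MT2/T618I against Asxl1-MT2/Empty 7 fell and 1 rose, beside 22.8% and 26.9% of all genes.

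Counts were found for 26 members, 8 ligands and 18 receptors. Tnfsf11 (the osteoclast factor RANKL), Tnfsf15, Tnfsf18, Tnfrsf11b (the secreted decoy osteoprotegerin) and Tnfrsf19 had 0 counts in all 12 libraries. A count of 0 allows a level of up to 0.0252 CPM over the libraries together (3 counts). A single library held counts of 19 to 24 members, which made up 0.0625% to 0.098% of all its counts. The edgeR low-count filter kept 19 members, the ligands Tnfsf9, Tnfsf10, Tnfsf12, Tnfsf13 and Tnfsf14 and 14 receptors. The other 7 with counts were too low for the test.

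Levels per exon length (RPKM, counts scaled for exon length and library total) spanned a wide range. Tnfrsf1a, the TNF receptor with a death domain, had the highest mean over the 12 libraries at 74.7 RPKM. Tnfrsf1b, the TNF receptor that binds TRAF proteins, followed at 61.5 RPKM. Next came Tnfrsf21, the death domain receptor DR6, at 37.7 RPKM and Tnfrsf26, a mouse receptor encoded in a cluster on chromosome 7, at 24.8 RPKM. The ligand with the highest mean was Tnfsf14, also called LIGHT, at 20.8 RPKM. Tnfsf9, the ligand of the T cell receptor CD137, was the next ligand at 4.91 RPKM. The remaining 3 tested ligands, Tnfsf10 (TRAIL), Tnfsf12 (TWEAK) and Tnfsf13 (APRIL), were below 2 RPKM in every group. Per exon length, the ligand levels were led by Tnfsf14 in all 4 groups, as the plot of levels per exon length shows.

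**Figure D1:**
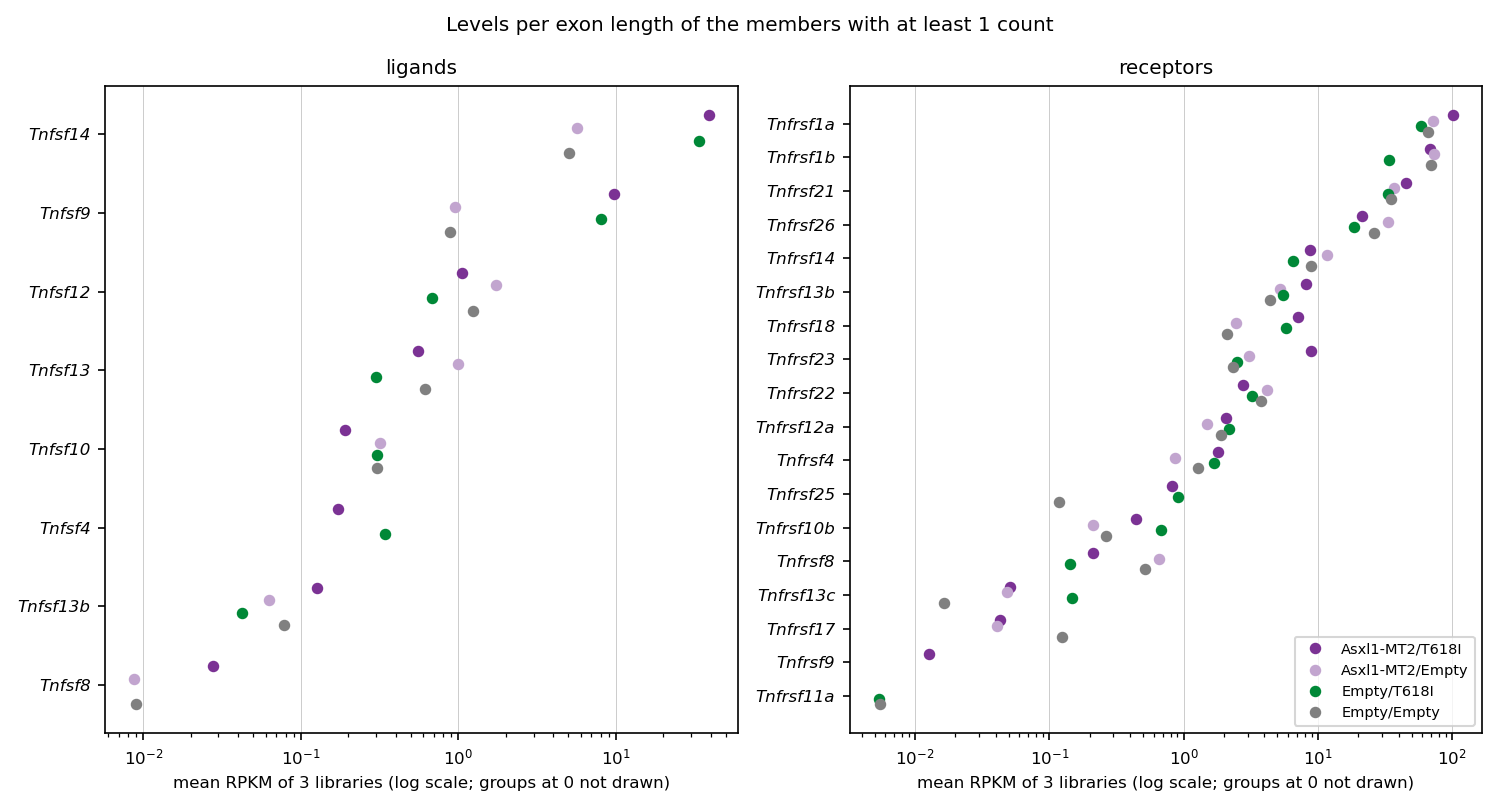
Mean level per exon length of the 26 members with counts (RPKM, log axis), ligands left and receptors right, ordered by the mean over 12 libraries, with a point for each group of 3 libraries and groups at 0 not drawn. Tnfrsf1a, Tnfrsf1b, Tnfrsf21 and Tnfrsf26 lie at the top of the receptors, and Tnfsf14 and Tnfsf9 have their T618I groups far to the right of the groups without T618I.

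The first comparison asked what the mutant receptor did on its own. In Empty/T618I cells 5 members rose and 3 fell against Empty/Empty cells, out of 19 tested. The edgeR quasi-likelihood test called 33.5% of all 11578 genes in this comparison, 17.6% higher and 15.9% lower, against 42.1% of the tested members. The members' median log2 fold change was -0.01, and that of all genes tested was 0.00. Both ligands called, Tnfsf14 and Tnfsf9, rose, and the receptors split into 3 higher and 3 lower.

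Tnfsf14 (chromosome 17, 57189492 to 57194177, GRCm38) encodes a ligand that binds the receptor encoded by Tnfrsf14 (HVEM) and the lymphotoxin beta receptor, encoded by Ltbr. Its level was 58.0, 68.3 and 60.0 CPM in Empty/T618I libraries A, B and C, against 7.75, 9.54 and 10.8 CPM in the Empty/Empty libraries. The groups did not overlap. The increase was 6.62-fold (log2 fold change 2.73 ± 0.146 SE, edgeR adjusted p = 3.4e-10). Tnfsf9 (chromosome 17, 57105325 to 57107757) stood at 10.7, 11.4 and 8.97 CPM in Empty/T618I, against 1.01, 0.894 and 1.55 CPM in Empty/Empty. All 3 libraries with T618I again lay above all 3 without it, by 8.94-fold (log2 3.16 ± 0.301 SE, edgeR adjusted p = 3e-07). The other 3 tested ligands did not pass in any comparison, and their levels over the 12 libraries ran from 0.531 to 2.17 CPM for Tnfsf10, 0.382 to 3.25 CPM for Tnfsf12 and 0.286 to 2.27 CPM for Tnfsf13. With 1 library left out, 2 of them passed in Asxl1-MT2/T618I against Asxl1-MT2/Empty, Tnfsf10 without Asxl1-MT2/Empty library A (log2 -1.07, edgeR adjusted p = 0.0407) and Tnfsf13 without Asxl1-MT2/T618I library C (log2 -1.33, edgeR adjusted p = 0.0316).

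Of the receptors that rose, Tnfrsf18 (chromosome 4, 156026164 to 156028895) encodes GITR, a costimulatory receptor best known on T cells. It was at 9.03, 7.73 and 9.91 CPM in Empty/T618I, against 3.62, 3.58 and 2.47 CPM in Empty/Empty, with no overlap (log2 1.46 ± 0.190 SE, edgeR adjusted p = 1.1e-05). Tnfrsf10b (chromosome 14, 69767472 to 69784411) encodes the mouse TRAIL receptor with a death domain. Its level was 3.94, 2.77 and 4.48 CPM in Empty/T618I, against 1.91, 1.19 and 1.24 CPM in Empty/Empty (log2 1.35 ± 0.282 SE, edgeR adjusted p = 0.0011). Here too every T618I library was above every control library. Tnfrsf25 (chromosome 4, 152115934 to 152120119), the death domain receptor for TL1A, was low. It had 22, 17 and 24 counts in the Empty/T618I libraries and 6, 0 and 2 in the Empty/Empty libraries, or 2.11, 1.62 and 2.50 CPM against 0.604, 0 and 0.206 CPM. The ratio of the summed counts was 7.67 (95% counting interval 3.67 to 18.5, which covers counting error only). The fitted log2 fold change was 2.89 ± 0.563 SE (edgeR adjusted p = 0.0009). It was 4.19 without Empty/Empty library A, and between 2.33 and 3.05 when any other single library was left out, and each of these passed.

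Of the receptors that fell, Tnfrsf1b (chromosome 4, 145213463 to 145246870) had the smallest adjusted p. It was at 137, 126 and 128 CPM in Empty/T618I, against 267, 274 and 251 CPM in Empty/Empty. The level with T618I was 2.03-fold lower, far beyond the spread of either group (log2 -1.02 ± 0.0951 SE, edgeR adjusted p = 2.3e-07). Tnfrsf26 was at 55.3, 60.9 and 62.3 CPM in Empty/T618I, against 90.6, 83.9 and 80.6 CPM in Empty/Empty, again without overlap (log2 -0.52 ± 0.0885 SE, edgeR adjusted p = 0.00019). Tnfrsf8, which encodes the TRAF-binding receptor CD30, was near the limit of detection. Its level was 0.769, 0.191 and 0.521 CPM in Empty/T618I, against 1.61, 1.69 and 2.06 CPM in Empty/Empty (log2 -1.83 ± 0.402 SE, edgeR adjusted p = 0.0018). The T618I libraries held 8, 2 and 5 counts of this gene, and all lay below the controls.

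**Figure D2:**
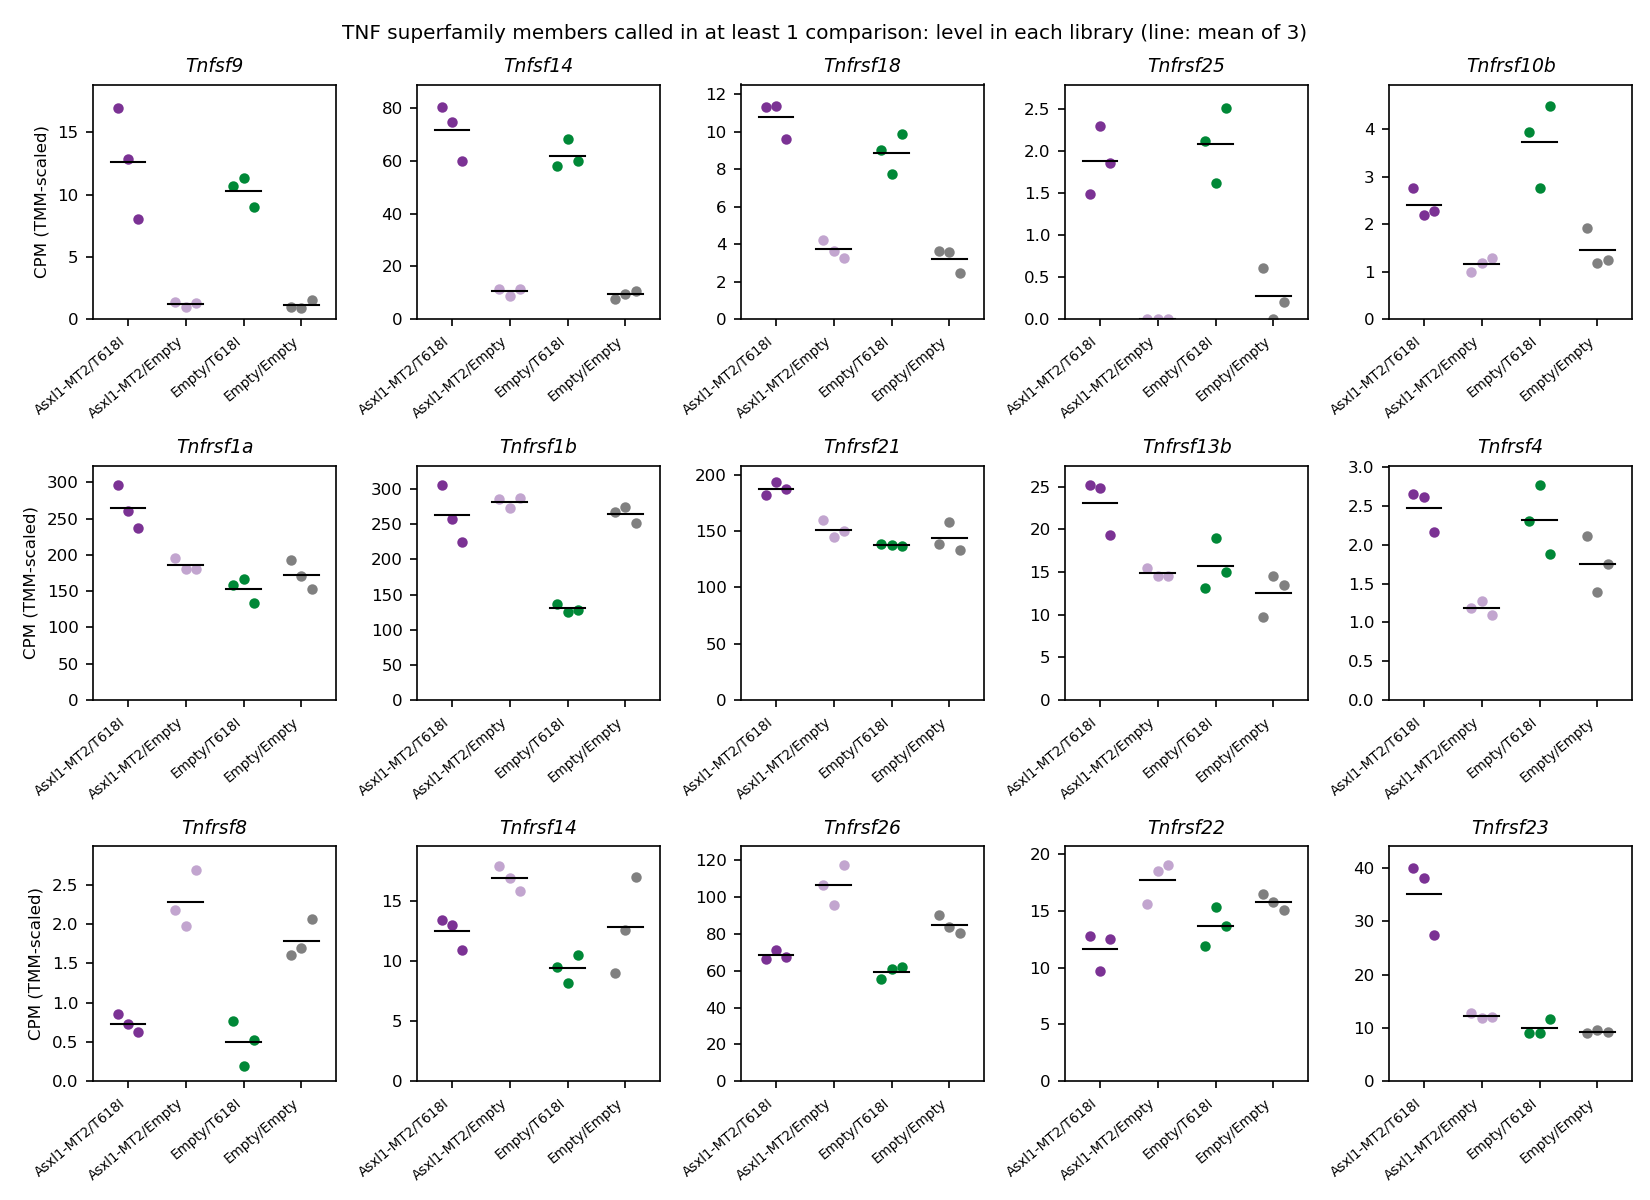
Level of each of the 15 members called in at least 1 comparison (CPM, linear axes from 0), with a point for each library (A, B and C from left to right) and a line at the mean of 3. Tnfsf9, Tnfsf14, Tnfrsf18 and Tnfrsf25 are high in both T618I groups, Tnfrsf1b is low in Empty/T618I, and Tnfrsf23 is high in Asxl1-MT2/T618I.

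The start regions of the called members were searched for letters that STAT and NF-kB proteins are known to bind. CSF3R signals mainly through STAT3, and TNF receptors through NF-kB. RefSeq windows (GRCm38.p6) were given for 11 of the 15 members called in at least 1 comparison, with 12 windows in all, and the 250 bases before each start were read. The search used TTCNNNGAA for STAT, which reads the same on both strands, and, for NF-kB, GGG, any 3 bases and TTCC, on both strands. The STAT letters were in 4 of the 12 windows, against 7.02% of 32851 RefSeq windows, and the NF-kB letters in 1 of 12, against 4.65%. The 250 bases before the start are shown for Tnfrsf1b, the receptor with the lower level in Empty/T618I, at chr4:145246871-145247120 (minus strand), and for Tnfsf14, the called ligand with the smallest adjusted p, at chr17:57194182-57194431 (minus strand). The STAT matches of Tnfrsf18 (chr4:156026213-156026241), Tnfrsf25 (chr4:152116317-152116342) and Tnfrsf1a (chr6:125349473-125349497), all on the plus strand, are shown with at most 10 bases on either side. Capitals mark the letters found.
Tnfrsf1b: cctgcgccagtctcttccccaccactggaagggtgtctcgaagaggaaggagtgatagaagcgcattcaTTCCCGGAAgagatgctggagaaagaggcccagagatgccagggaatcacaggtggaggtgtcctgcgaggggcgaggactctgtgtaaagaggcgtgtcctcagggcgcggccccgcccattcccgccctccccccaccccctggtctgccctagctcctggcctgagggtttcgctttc
Tnfsf14: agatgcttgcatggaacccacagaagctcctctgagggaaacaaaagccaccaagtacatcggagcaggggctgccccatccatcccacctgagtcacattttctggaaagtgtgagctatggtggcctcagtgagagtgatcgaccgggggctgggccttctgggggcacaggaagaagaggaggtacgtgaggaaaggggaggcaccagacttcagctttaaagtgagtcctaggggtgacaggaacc
Tnfrsf18: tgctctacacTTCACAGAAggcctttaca
Tnfrsf25: gggcctccacTTCTCAGAAggcatgg
Tnfrsf1a: gcttccTTCCGTGAAattgacaaca

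Counted from the RefSeq start of its window, the match lay 181 bases upstream in Tnfrsf1b, 99 in Tnfrsf18, 16 in Tnfrsf25 and 244 in Tnfrsf1a. The gene extents printed here are those of GENCODE, whose starts differ from RefSeq's for all of these genes but Tnfrsf1b. Within the GENCODE extents the match lay 59 bases past the start of Tnfrsf18, 393 past that of Tnfrsf25 and 117 past that of Tnfrsf1a, so for these 3 it was not upstream of the printed gene. A further RefSeq window of Tnfrsf25, which begins its gene at the GENCODE start, held no STAT letters and the 1 match to the NF-kB letters. The Tnfsf14 window held neither motif. A match is a stretch of letters, not a measured binding site, and members with a match moved in both directions. Tnfrsf1a, with a match, did not pass in Empty/T618I against Empty/Empty (log2 -0.17 ± 0.105 SE, edgeR adjusted p = 0.24). A window of Tnfrsf9, a member not called and with 1 count over the 12 libraries, held both motifs. The 12 windows are too few to read against the shares of all windows.

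The second comparison asked what truncated Asxl1 did without the mutant receptor. None of the 19 tested members was called in Asxl1-MT2/Empty against Empty/Empty by the edgeR quasi-likelihood test, where 1.86% of all genes were called, 1.24% higher and 0.622% lower. At an unadjusted p under 0.05 there were 4 members, Tnfrsf14, Tnfrsf23, Tnfrsf25 and Tnfrsf26, and DESeq2 called 1. That was Tnfrsf26, at 107, 95.9 and 117 CPM in Asxl1-MT2/Empty, against 90.6, 83.9 and 80.6 CPM in Empty/Empty (log2 0.33, DESeq2 adjusted p = 0.0339, edgeR adjusted p = 0.065). The groups did not overlap. Tnfrsf25 had 0 counts in all 3 Asxl1-MT2/Empty libraries, against 6, 0 and 2 in the Empty/Empty libraries, and this was not called. Against a floor of 3 counts over the group the level was 2.72-fold lower, which takes the 8 counts of Empty/Empty as exact. The members' median log2 fold change was 0.17, and that of all genes was 0.

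The third comparison asked what truncated Asxl1 did in cells that carry the mutant receptor. In Asxl1-MT2/T618I against Empty/T618I 5 members rose and 0 fell, all of them receptors. These were Tnfrsf1a, Tnfrsf1b, Tnfrsf13b, Tnfrsf21 and Tnfrsf23. Among all genes 25.4% rose and 18.5% fell (43.9% called in all), so the 26.3% of tested members that rose was close to that of all genes. At an unadjusted p under 0.05 there were 8 members. With 1 library left out, Tnfrsf10b passed as lower without Empty/T618I library B (log2 -0.82, edgeR adjusted p = 0.026), and Tnfrsf14 as higher without Empty/Empty library A or C (log2 0.41 and 0.39, edgeR adjusted p = 0.0422 and 0.046). The median log2 fold change was 0.29 over the tested members and 0.01 over all genes. None of the 5 tested ligands passed: Tnfsf14 was at 80.4, 75.0 and 60.1 CPM in Asxl1-MT2/T618I, and Tnfsf9 at 17.0, 12.8 and 8.05 CPM, with their Empty/T618I values given above (log2 0.21 ± 0.122 and 0.29 ± 0.216 SE, edgeR adjusted p = 0.17 and 0.3). Without Asxl1-MT2/T618I library C, Tnfsf9 passed (log2 0.51, edgeR adjusted p = 0.0361).

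Tnfrsf23, a mouse decoy receptor for TRAIL, had the largest fold change of these. It was at 40.002, 38.2 and 27.5 CPM in Asxl1-MT2/T618I, against 9.03, 9.06 and 11.6 CPM in Empty/T618I. The groups were far apart, with a 3.57-fold increase (log2 1.83 ± 0.147 SE, edgeR adjusted p = 4.8e-08). Tnfrsf1b stood at 305, 258 and 224 CPM in Asxl1-MT2/T618I, against the 126 to 137 CPM of Empty/T618I, a 2.01-fold increase (log2 1.01 ± 0.0951 SE, edgeR adjusted p = 2.8e-07). Its levels with Asxl1-MT2/T618I thus spanned those of the Empty/Empty libraries, 251 to 274 CPM. Tnfrsf1a (chromosome 6, 125349362 to 125362484) was at 297, 260 and 236 CPM in Asxl1-MT2/T618I, against 158, 166 and 134 CPM in Empty/T618I, with no overlap (log2 0.79 ± 0.105 SE, edgeR adjusted p = 1.3e-05).

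Tnfrsf21 (chromosome 17, 43016555 to 43089189) was at 183, 193 and 187 CPM in Asxl1-MT2/T618I, against 139, 138 and 136 CPM in Empty/T618I (log2 0.45 ± 0.0769 SE, edgeR adjusted p = 0.00017). This was a small increase with very little spread within either group. Tnfrsf13b (chromosome 11, 61126755 to 61149372) encodes TACI, a receptor for the B cell factors BAFF and APRIL. It was at 25.1, 24.8 and 19.3 CPM in Asxl1-MT2/T618I, against 13.2, 19.0 and 15.0 CPM in Empty/T618I (log2 0.55 ± 0.158 SE, edgeR adjusted p = 0.0093). The lowest library of the double group lay just above the highest Empty/T618I library, and the call was lost without Empty/T618I library A (edgeR adjusted p = 0.0624).

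The change with Asxl1-MT2 in T618I cells was then set against the change without T618I, in an interaction test. It was larger in T618I cells for 4 members, Tnfrsf1a, Tnfrsf1b, Tnfrsf21 and Tnfrsf23, and smaller for 0, where 19.6% of all genes were called, 14.1% in the positive and 5.51% in the negative direction. The tested members called made up 21.1%. For Tnfrsf23 the changes were 1.83 ± 0.147 with T618I and 0.40 ± 0.159 without it on the log2 scale, a difference of 1.43 ± 0.217 (SE, edgeR adjusted p = 0.00021). For Tnfrsf1b they were 1.01 ± 0.0951 and 0.09 ± 0.0931, a difference of 0.92 ± 0.133 (edgeR adjusted p = 0.00015). The difference for Tnfrsf1a was 0.68 ± 0.148 (edgeR adjusted p = 0.0036). That for Tnfrsf21 was 0.37 ± 0.109 (edgeR adjusted p = 0.024), and it was lost in 6 of 12 fits with 1 library left out, with adjusted p up to 0.0929 in edgeR. Those libraries were Empty/Empty B, Empty/T618I A, B and C, Asxl1-MT2/Empty B and Asxl1-MT2/T618I B. For the ligands the differences were small, at 0.19 ± 0.477 for Tnfsf9 and 0.04 ± 0.208 for Tnfsf14, which did not pass (edgeR adjusted p = 0.82 and 0.91).

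**Figure D3:**
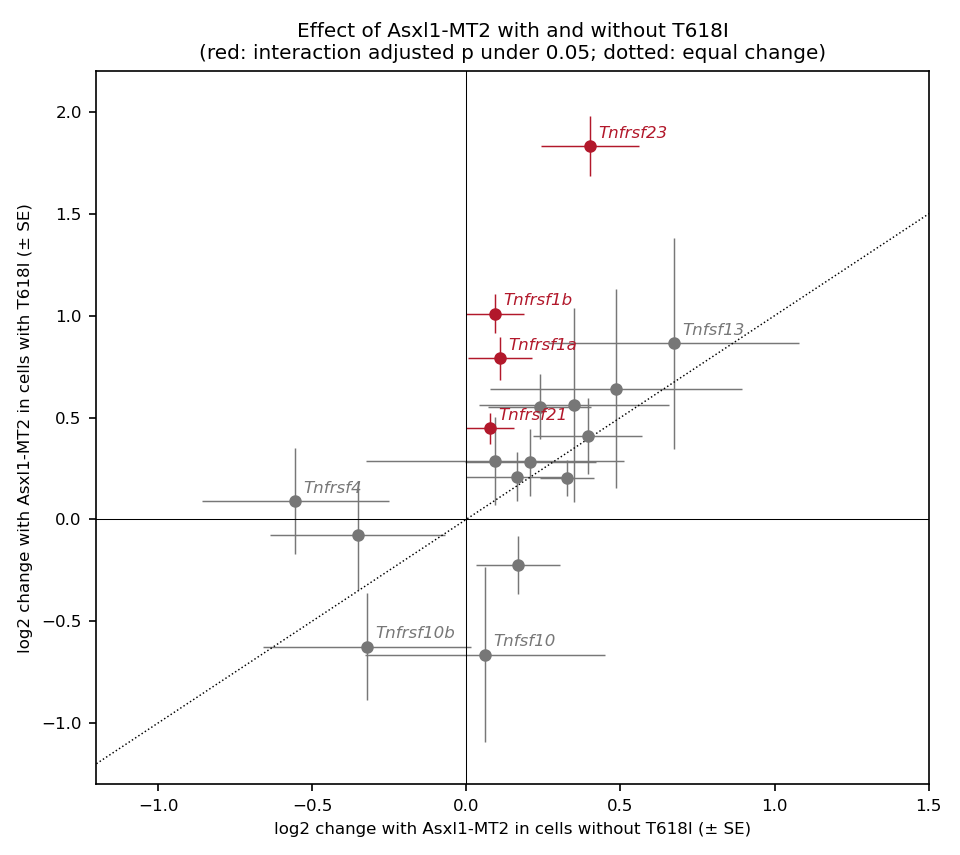
Log2 change with Asxl1-MT2 in cells without T618I (x axis, Asxl1-MT2/Empty against Empty/Empty) and with T618I (y axis, Asxl1-MT2/T618I against Empty/T618I) for the tested members, with SE bars; Tnfrsf25 is not drawn because Asxl1-MT2/Empty had 0 counts. Tnfrsf23, Tnfrsf1b, Tnfrsf1a and Tnfrsf21, in red, lie above the dotted line of equal change.

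The last comparison asked what the mutant receptor did in cells with truncated Asxl1. In Asxl1-MT2/T618I against Asxl1-MT2/Empty 10 members rose and 4 fell of 19 tested, or 52.6% and 21.1%. Among all genes 49.8% were called, 26.9% higher and 22.8% lower. The median log2 fold change was 0.47 over the members and -0.02 over all genes. This comparison shares its double group with the one before, and each has its own values here. All 4 tested death domain receptors (Tnfrsf1a, Tnfrsf10b, Tnfrsf21 and Tnfrsf25) rose, and of 7 tested TRAF-binding receptors 3 rose and 2 fell.

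The called ligands were again Tnfsf9 and Tnfsf14. Tnfsf9 was at 17.0, 12.8 and 8.05 CPM in Asxl1-MT2/T618I, against 1.38, 0.986 and 1.30 CPM in Asxl1-MT2/Empty, 10.2-fold higher (log2 3.35 ± 0.292 SE, edgeR adjusted p = 4.7e-08). Tnfsf14 was at 80.4, 75.0 and 60.1 CPM in Asxl1-MT2/T618I, against 11.3, 8.68 and 11.6 CPM in Asxl1-MT2/Empty, 6.83-fold higher (log2 2.77 ± 0.143 SE, edgeR adjusted p = 6.5e-11). In neither gene did the groups overlap, and the 3 Asxl1-MT2/T618I libraries of Tnfsf9 were the more spread.

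Of the costimulatory receptors, Tnfrsf18 was at 11.4, 11.4 and 9.60 CPM in Asxl1-MT2/T618I, against 4.25, 3.65 and 3.29 CPM in Asxl1-MT2/Empty (log2 1.53 ± 0.183 SE, edgeR adjusted p = 2.6e-06). Tnfrsf4, which encodes OX40, a TRAF-binding receptor of activated T cells, was at 2.65, 2.61 and 2.17 CPM in Asxl1-MT2/T618I, against 1.19, 1.28 and 1.10 CPM in Asxl1-MT2/Empty (log2 1.05 ± 0.290 SE, edgeR adjusted p = 0.0063). Both genes had all libraries of the double group above the single one. Between Empty/T618I and Empty/Empty, Tnfrsf4 did not pass, at 2.31, 2.77 and 1.88 CPM in Empty/T618I, against 2.11, 1.39 and 1.75 CPM in Empty/Empty (log2 0.41 ± 0.273 SE, edgeR adjusted p = 0.28). Those groups overlapped.

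Among the death domain receptors, Tnfrsf10b was at 2.76, 2.19 and 2.27 CPM in Asxl1-MT2/T618I, against 0.988, 1.18 and 1.30 CPM in Asxl1-MT2/Empty (log2 1.05 ± 0.312 SE, edgeR adjusted p = 0.01). Tnfrsf25 had 14, 22 and 18 counts in the Asxl1-MT2/T618I libraries (1.49, 2.30 and 1.86 CPM) and 0 in all 3 of Asxl1-MT2/Empty. Against a floor of 3 counts over the group it was 19.0-fold higher, which takes the counts of Asxl1-MT2/T618I as exact (edgeR adjusted p = 3.7e-05). Tnfrsf1a was at 195, 181 and 180 CPM in Asxl1-MT2/Empty and Tnfrsf21 at 159, 145 and 150 CPM, below all their Asxl1-MT2/T618I values (log2 0.51 ± 0.104 and 0.31 ± 0.0766 SE, edgeR adjusted p = 0.0006 and 0.003). Tnfrsf13b was at 15.4, 14.6 and 14.6 CPM in Asxl1-MT2/Empty, also below the double group (log2 0.64 ± 0.159 SE, edgeR adjusted p = 0.0033). It was at 9.76, 14.5 and 13.5 CPM in Empty/Empty, and neither single construct changed it past the threshold. Tnfrsf1b was at 286, 273 and 287 CPM in Asxl1-MT2/Empty, a range inside the 224 to 305 CPM of the double group, and it did not pass (log2 -0.10 ± 0.0931 SE, edgeR adjusted p = 0.38). Without Asxl1-MT2/T618I library A it passed as lower in the double group (log2 -0.23, edgeR adjusted p = 0.0439).

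Of the receptors that fell, Tnfrsf8 was at 0.849, 0.731 and 0.619 CPM in Asxl1-MT2/T618I, against 2.17, 1.97 and 2.69 CPM in Asxl1-MT2/Empty (log2 -1.62 ± 0.363 SE, edgeR adjusted p = 0.0013), with no overlap. Tnfrsf14, which encodes the receptor of LIGHT, was at 13.5, 13.0 and 10.9 CPM in Asxl1-MT2/T618I, against 17.98, 17.0 and 15.9 CPM in Asxl1-MT2/Empty. The groups did not overlap but the p was near the threshold (log2 -0.44 ± 0.178 SE, edgeR adjusted p = 0.0494). The call was lost in 9 of 12 fits with 1 library left out, all but those without Empty/Empty A, Empty/Empty C or Empty/T618I C (edgeR adjusted p up to 0.161), and with RLE scaling and DESeq2. In the other groups Tnfrsf14 was at 9.51, 8.20 and 10.5 CPM in Empty/T618I, against 9.06, 12.6 and 17.0 CPM in Empty/Empty, where the groups overlapped. That difference did not pass (edgeR adjusted p = 0.072), but passed without Empty/Empty library A (log2 -0.66, edgeR adjusted p = 0.0071).

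**Figure D4:**
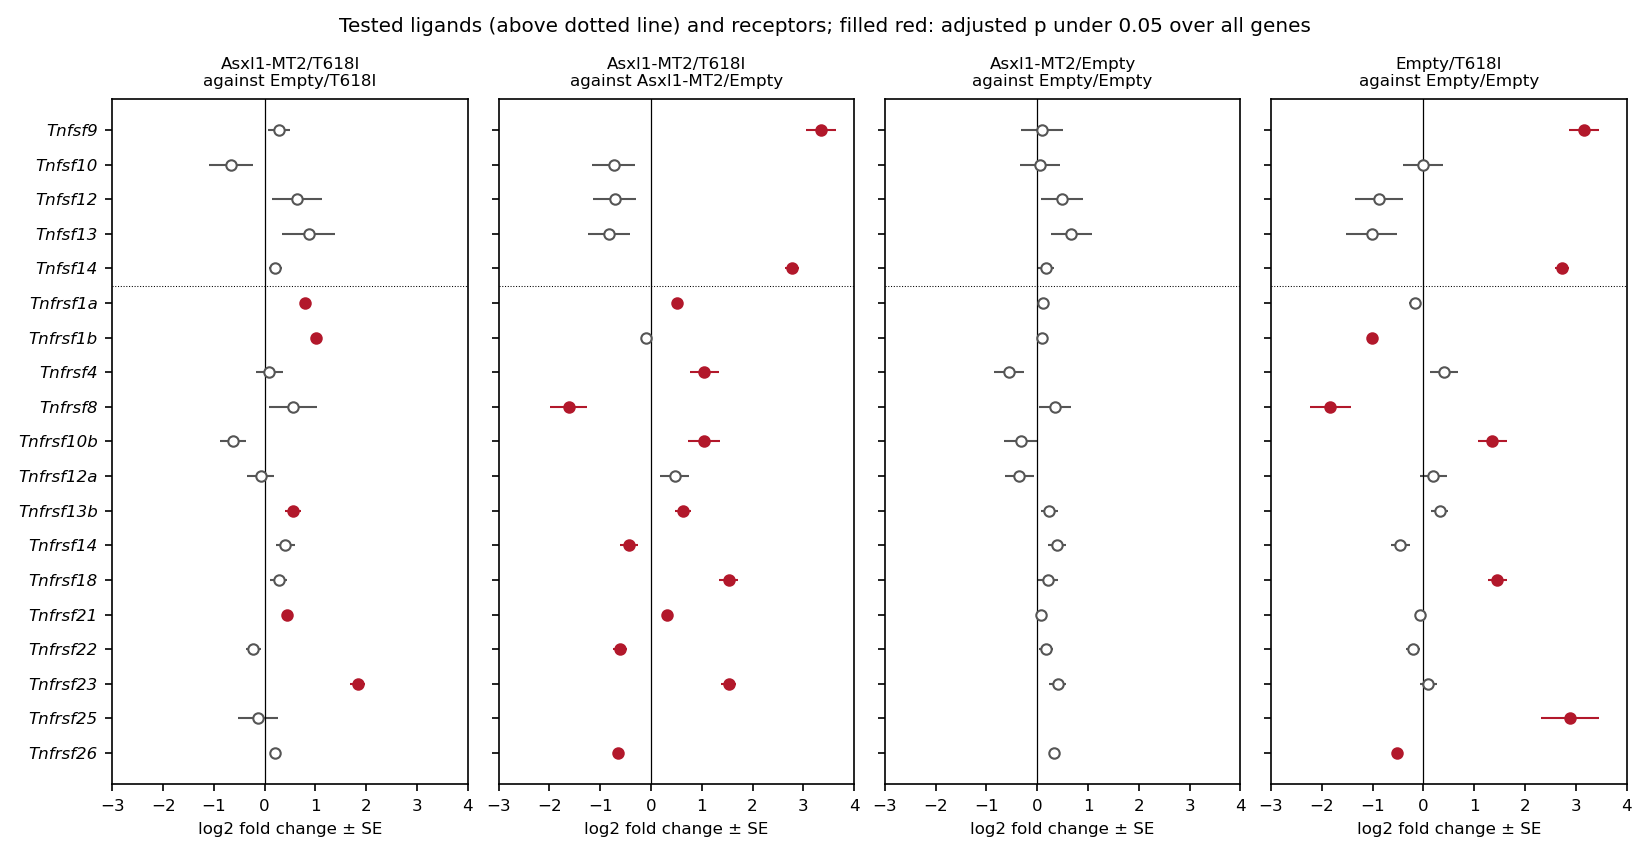
Log2 fold change ± SE of the 19 tested members in the 4 comparisons, ligands above the dotted line and receptors below it, filled red where the adjusted p over all genes was under 0.05; Tnfrsf25 is left out where Asxl1-MT2/Empty had 0 counts. No point is red for Asxl1-MT2/Empty against Empty/Empty, and Tnfsf9 and Tnfsf14 lie near 3 in both comparisons of T618I with its absence.

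The chromosome 7 cluster shows how neighbours differed. Tnfrsf26, Tnfrsf22 and Tnfrsf23 lie side by side on the minus strand (GRCm38, 143607659 to 143685872), 6.08 and 16.1 kb apart. Tnfrsf22, like Tnfrsf23, is a decoy receptor for TRAIL in mouse. It was at 12.8, 9.71 and 12.5 CPM in Asxl1-MT2/T618I, 15.6, 18.5 and 19.0 CPM in Asxl1-MT2/Empty, 11.9, 15.4 and 13.7 CPM in Empty/T618I and 16.5, 15.8 and 15.1 CPM in Empty/Empty. It fell in Asxl1-MT2/T618I against Asxl1-MT2/Empty (log2 -0.60 ± 0.140 SE, edgeR adjusted p = 0.0019). Tnfrsf26, at 66.5, 71.5 and 67.5 CPM in Asxl1-MT2/T618I against the 95.9 to 117 CPM of Asxl1-MT2/Empty, fell as well (log2 -0.64 ± 0.0875 SE, edgeR adjusted p = 1.2e-05).

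Tnfrsf23 rose in that same comparison, to between 27.5 and 40.002 CPM in Asxl1-MT2/T618I, against 12.7, 11.8 and 11.97 CPM in Asxl1-MT2/Empty (log2 1.53 ± 0.144 SE, edgeR adjusted p = 1.2e-07). Its Empty/Empty libraries were at 8.95, 9.54 and 9.18 CPM, level with Empty/T618I (log2 0.10 ± 0.163 SE, edgeR adjusted p = 0.69). Tnfrsf22 and Tnfrsf23 share 719 stretches of 50 bases, 17.3% of those in Tnfrsf22 and 18% of those in Tnfrsf23, so reads from the shared parts may have been counted to either. Tnfrsf26 shares none with them. The extent of the antisense gene E230032D23Rik overlaps those of all 3, but overlap of their exons was not examined. The strand setting of the counting is unknown, so reads from any shared exons cannot be told apart.

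Other neighbours were also compared. Tnfrsf4 and Tnfrsf18 lie 9.55 kb apart on chromosome 4, and both rose in Asxl1-MT2/T618I against Asxl1-MT2/Empty, while in Empty/T618I against Empty/Empty Tnfrsf18 passed and Tnfrsf4 did not. Tnfrsf1b and Tnfrsf8 lie 20.3 kb apart on the same chromosome, and both fell in Empty/T618I against Empty/Empty. In Asxl1-MT2/T618I against Empty/T618I, Tnfrsf1b rose, and Tnfrsf8 had a log2 fold change of 0.56 ± 0.475 (SE), which did not pass (edgeR adjusted p = 0.36). Tnfsf9 and Tnfsf14, the ligands that rose with T618I, flank Cd70 on chromosome 17, at 38.2 and 39.7 kb from it, and Cd70 had 0 counts in all 12 libraries. Tnfsf13 and Tnfsf12 lie 0.465 kb apart on chromosome 11. The extent of the readthrough gene Tnfsfm13 overlaps both on the same strand, so their counts are uncertain. The extents of Tnfsf9, Tnfrsf18 and Tnfrsf13b each overlap that of an antisense gene (Gm11110, Gm16008 and Gm12269). Overlap of exons was not examined for any of these genes. Without the strand setting, reads from any shared exons cannot be told apart either.

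The members too low for the test were given by their summed counts. Tnfsf4, the ligand of OX40, had 9 counts in Asxl1-MT2/T618I, 0 in Asxl1-MT2/Empty, 19 in Empty/T618I and 0 in Empty/Empty. Against a floor of 3 counts over the group, Empty/T618I was 6.17-fold higher than Empty/Empty, and Asxl1-MT2/T618I 3.17-fold higher than Asxl1-MT2/Empty. Both ratios take the counts above 0 as exact. DESeq2, which kept this gene, called both (adjusted p = 0.0075 and 0.033 in DESeq2), and so did edgeR with no low-count filter. Tnfsf13b, which encodes BAFF, had 25, 13, 9 and 16 counts in Asxl1-MT2/T618I, Asxl1-MT2/Empty, Empty/T618I and Empty/Empty. The ratio of Asxl1-MT2/T618I to Empty/T618I was 2.95 (95% counting interval 1.33 to 7.18, which covers counting error only). The libraries held 13, 5 and 7 counts in Asxl1-MT2/T618I and 1, 6 and 2 in Empty/T618I, so the groups overlapped. Tnfrsf13c, the BAFF receptor, had 3, 3, 9 and 1 counts in the same order of groups. The ratio of Empty/T618I to Empty/Empty was 8.77 (95% counting interval 1.22 to 384). Its libraries held 3, 0 and 6 counts in Empty/T618I and 1, 0 and 0 in Empty/Empty, which overlapped as well. Without the low-count filter edgeR called neither Tnfsf13b nor Tnfrsf13c in these comparisons.

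The remaining 4 members had almost no counts. Tnfsf8, the ligand of CD30, had 3, 1, 0 and 1 counts in Asxl1-MT2/T618I, Asxl1-MT2/Empty, Empty/T618I and Empty/Empty, and Tnfrsf17 (BCMA) had 1, 1, 0 and 3. Tnfrsf11a (RANK) had 0, 0, 1 and 1, and Tnfrsf9 (CD137) had 1, 0, 0 and 0. Tnfrsf12a, the receptor of TWEAK, passed the filter but was called in no comparison, and its level over the 12 libraries ran from 1.60 to 5.19 CPM. Without Asxl1-MT2/Empty library B it passed in Asxl1-MT2/T618I against Asxl1-MT2/Empty (log2 0.79, edgeR adjusted p = 0.0456).

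Set by ligand and receptor pair, some called genes had few or no counts of their partner. Over the 12 libraries Tnfsf9 had 748 counts and its receptor gene Tnfrsf9 had 1. Tnfrsf18 had 788 counts and its ligand gene Tnfsf18 had 0. Likewise Tnfrsf25 had 125 counts and its ligand gene Tnfsf15 had 0. Both partners were present for Tnfsf14, with 4550 counts, beside 1539 for Tnfrsf14 and 12499 for Ltbr. The TRAIL gene Tnfsf10 had 177 counts, beside 260 for Tnfrsf10b, 1757 for Tnfrsf22 and 1952 for Tnfrsf23. These are sums of counts, which also depend on transcript length, and RNA does not show which protein reached the surface.

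The family genes with other symbols were tested as well. Of the 7 ligands Tnf, Lta, Ltb, Fasl, Cd40lg, Cd70 and Eda, 2 were tested, and of the 8 receptors Fas, Cd40, Cd27, Ltbr, Ngfr, Edar, Eda2r and Relt, 3 were. Both ligands rose in Asxl1-MT2/T618I against either single group, and all 3 receptors rose in every comparison of Asxl1-MT2/T618I with a single group and of Empty/T618I with Empty/Empty. Among all genes, 25.4% rose in Asxl1-MT2/T618I against Empty/T618I, 26.9% against Asxl1-MT2/Empty and 17.6% in Empty/T618I against Empty/Empty, and with 5 tested genes the list is too short to read against these shares. None was called in Asxl1-MT2/Empty against Empty/Empty by edgeR. Cd70, Ngfr and Edar had 0 counts.

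Tnf, the founding ligand, was at 28.2, 30.2 and 27.0 CPM in Asxl1-MT2/T618I, 8.50, 7.79 and 5.29 CPM in Asxl1-MT2/Empty, 14.1, 12.1 and 12.4 CPM in Empty/T618I and 11.6, 9.54 and 7.94 CPM in Empty/Empty. The double group stood above all others, 2.21-fold over Empty/T618I (log2 1.14 ± 0.152 SE, edgeR adjusted p = 1.3e-05). With T618I alone it did not pass (log2 0.41 ± 0.166 SE, edgeR adjusted p = 0.066). Ltb, which encodes lymphotoxin beta, was at 5.73, 5.32 and 3.72 CPM in Asxl1-MT2/T618I, 0.198, 0.197 and 0.299 CPM in Asxl1-MT2/Empty, 1.54, 1.34 and 1.36 CPM in Empty/T618I and 0.604, 0.497 and 0.206 CPM in Empty/Empty. It rose with T618I alone and further in the double group (log2 1.79 ± 0.280 SE over Empty/T618I, edgeR adjusted p = 6.9e-05).

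Fas, the death receptor for Fas ligand, was at 20.7, 14.7 and 11.05 CPM in Asxl1-MT2/T618I, 1.78, 2.17 and 1.80 CPM in Asxl1-MT2/Empty, 5.96, 4.77 and 4.69 CPM in Empty/T618I and 1.01, 1.19 and 1.96 CPM in Empty/Empty. It was 3.70-fold higher in Empty/T618I than in Empty/Empty and 3.002-fold higher in Asxl1-MT2/T618I than in Empty/T618I (edgeR adjusted p = 0.00011 and 2.4e-05). The difference between its changes with Asxl1-MT2 did not pass (log2 1.12 ± 0.430 SE, edgeR adjusted p = 0.077). Ltbr averaged 142 ± 11.8 CPM in Asxl1-MT2/T618I, 91.1 ± 8.61 in Asxl1-MT2/Empty, 105 ± 4.79 in Empty/T618I and 83.6 ± 6.90 in Empty/Empty (SD, n = 3 each). Relt, a receptor of the family with no death domain, averaged 74.5 ± 10.2 CPM in Asxl1-MT2/T618I, 28.7 ± 5.03 in Asxl1-MT2/Empty, 47.2 ± 5.82 in Empty/T618I and 29.8 ± 3.51 in Empty/Empty (SD, n = 3 each).

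Downstream of the receptors, 31 signalling genes were counted, of which 30 were tested. The list held adaptors, ubiquitin ligases and kinases, the NF-kB genes Rela, Relb, Nfkb1 and Nfkb2, and others such as Casp8, Cflar and Mlkl. In Empty/T618I against Empty/Empty 11 rose and 1 fell, and in Asxl1-MT2/Empty against Empty/Empty 0 rose and 1 fell. In Asxl1-MT2/T618I 9 rose and 0 fell against Empty/T618I, and 14 rose and 1 fell against Asxl1-MT2/Empty. These calls were 40%, 3.33%, 30% and 50% of the tested genes of the list, beside 33.5%, 1.86%, 43.9% and 49.8% of all genes, so the third share was below that of all genes and the fourth level with it. The medians of the log2 fold changes in these comparisons were 0.12, 0.01, 0.13 and 0.25, beside 0.00, 0, 0.01 and -0.02 over all genes. Of 10 inhibitors induced by TNF receptor signalling, 4 rose with T618I alone, 0 passed with Asxl1-MT2 alone, 3 rose and 1 fell in Asxl1-MT2/T618I against Empty/T618I, and 4 rose against Asxl1-MT2/Empty. That was 40%, 0%, 40% and 40% of these inhibitors, beside the same shares of all genes. The share called does not set them apart, though all but 1 of their calls were higher. Of 3 tested genes of TNF shedding (Adam10, Adam17 and Rhbdf2), Rhbdf2 was the 1 called.

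Nfkbia, the inhibitor of NF-kB that NF-kB itself induces, was at 179, 156 and 125 CPM in Asxl1-MT2/T618I, 43.2, 38.0 and 35.1 CPM in Asxl1-MT2/Empty, 50.6, 45.7 and 47.5 CPM in Empty/T618I and 34.1, 29.0 and 32.8 CPM in Empty/Empty. The double group was 3.20-fold above Empty/T618I (log2 1.68 ± 0.117 SE, edgeR adjusted p = 1.1e-08). Relb, an NF-kB subunit, was at 13.7, 10.5 and 8.57 CPM in Asxl1-MT2/T618I, against 3.55, 3.34 and 3.65 CPM in Empty/T618I (log2 1.63 ± 0.240 SE, edgeR adjusted p = 3.8e-05). Birc3, a ubiquitin ligase bound to TRAF2, was at 92.8, 82.7 and 67.4 CPM in Asxl1-MT2/T618I, against 40.5, 43.3 and 44.1 CPM in Empty/T618I (log2 0.92 ± 0.106 SE, edgeR adjusted p = 2.6e-06). In all 3 genes the double group lay wholly above the other groups.

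Map3k14, the kinase NIK of the noncanonical NF-kB pathway, averaged 12.3 ± 2.53 CPM in Asxl1-MT2/T618I, 3.96 ± 0.335 in Asxl1-MT2/Empty, 6.70 ± 1.28 in Empty/T618I and 4.17 ± 0.279 in Empty/Empty. Nfkb2, the NF-kB subunit precursor that this kinase acts on, averaged 61.0 ± 5.60 CPM in Asxl1-MT2/T618I, 29.4 ± 5.32 in Asxl1-MT2/Empty, 43.3 ± 0.744 in Empty/T618I and 28.5 ± 2.17 in Empty/Empty. Rhbdf2, which the TNF-shedding protease ADAM17 needs to mature, averaged 160 ± 21.0 CPM in Asxl1-MT2/T618I, 56.6 ± 6.69 in Asxl1-MT2/Empty, 105 ± 3.90 in Empty/T618I and 48.8 ± 3.09 in Empty/Empty (SD, n = 3 each in all of these). All 3 rose with T618I, with and without Asxl1-MT2. Map3k5, the stress kinase ASK1, was the 1 gene of these lists called with Asxl1-MT2 alone, at 20.8, 21.7 and 20.3 CPM in Asxl1-MT2/Empty, against 30.4, 35.6 and 37.9 CPM in Empty/Empty (log2 -0.72 ± 0.137 SE, edgeR adjusted p = 0.01). It rose with T618I, and it averaged 64.2 ± 12.4 CPM in Asxl1-MT2/T618I and 62.3 ± 7.11 CPM in Empty/T618I, a difference that did not pass.

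NF-kB letters stood in the start regions of Ltb (chr17:35194410-35194439, plus strand, 87 bases before the start) and Nfkbia (chr12:55492657-55492686, minus strand, 29 bases before the start). Of the 10 genes named here that are not members and have RefSeq windows (12 windows), 3 held these letters, in 5 windows, against 4.65% of all windows. The third was Nfkb2, and no window of Tnf, Fas, Relt, Ltbr, Birc3, Map3k14 or Map3k5 held them, although these were also called. The Ltb and Nfkbia sequences are shown as examples of the letters, chosen after their values were seen. Capitals mark the letters found, which match the motif on the opposite strand.
Ltb: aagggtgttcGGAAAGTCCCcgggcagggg
Nfkbia: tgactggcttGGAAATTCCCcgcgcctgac

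**Figure D5:**
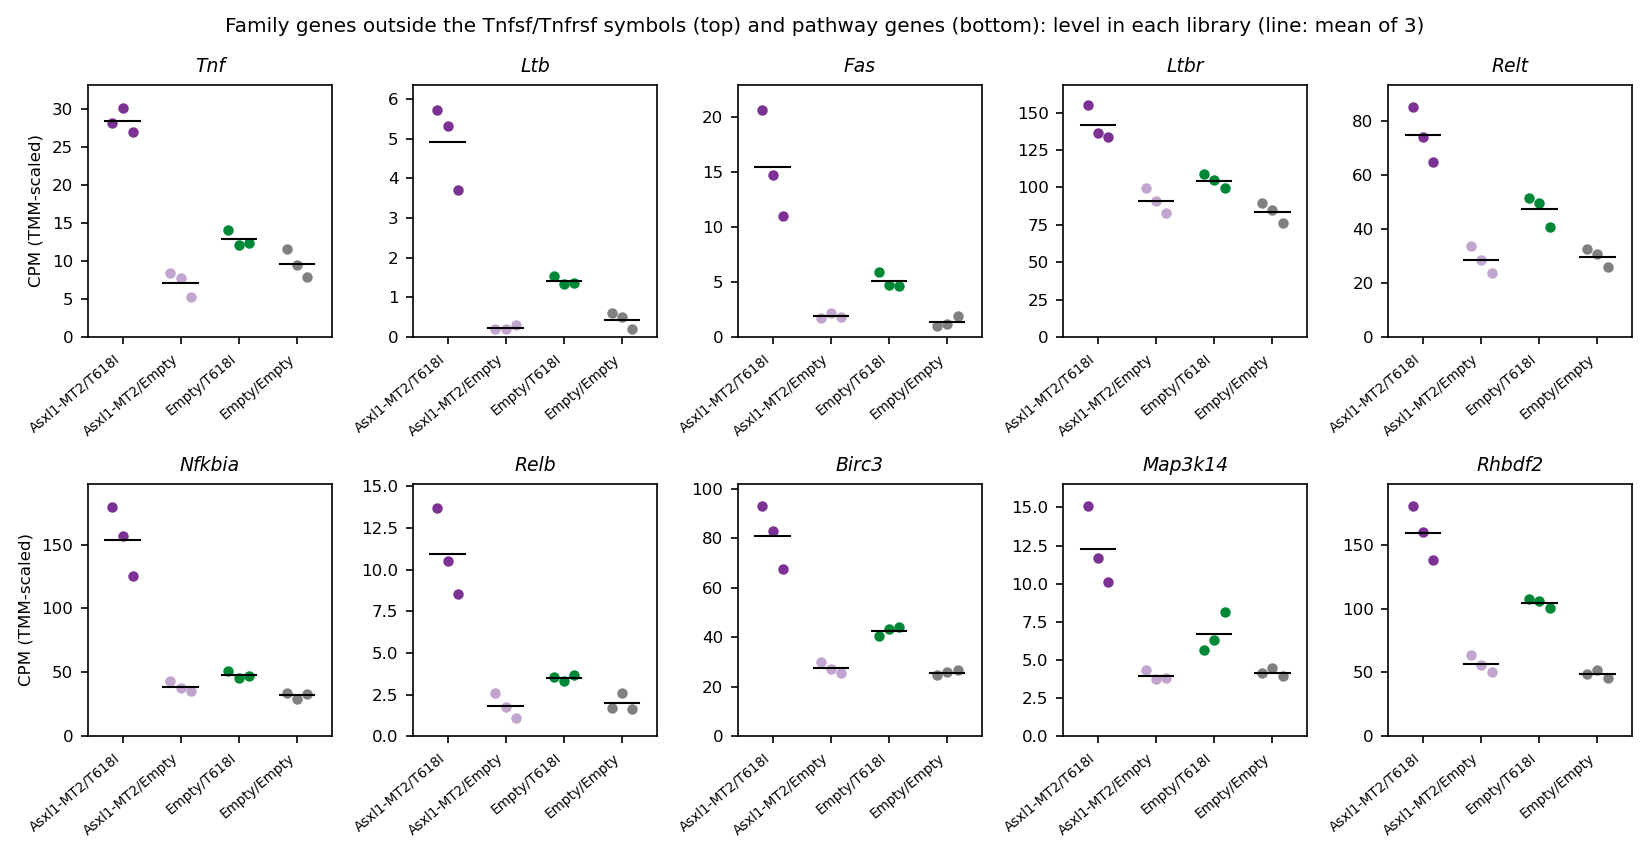
Level of 5 family genes with other symbols (top) and 5 pathway genes (bottom) in each library (CPM, linear axes from 0), with a line at the mean of 3. In all 10 genes drawn the Asxl1-MT2/T618I libraries lie above those of the other 3 groups. Nfkb2 and Map3k5, also named in the text, are not drawn. Map3k5 overlapped, at 53.2 to 77.6 CPM in Asxl1-MT2/T618I and 55.6 to 69.8 CPM in Empty/T618I.

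Several of these genes are known from other blood cells, so marker lists of such cells were summed beside them. Bulk libraries cannot tell a change in the share of a cell type from a change in RNA per cell. The T and NK cell list, of which 9 of 10 genes are in the table, summed to 3.86 to 6.05 CPM in Asxl1-MT2/T618I, 2.49 to 4.15 CPM in Asxl1-MT2/Empty, 5.57 to 6.77 CPM in Empty/T618I and 3.72 to 4.33 CPM in Empty/Empty. Cd3e, Cd2, Klrb1c and Cd8a were at 0 in all libraries. The B cell list of 9 genes summed to 3.18 to 5.22 CPM in Asxl1-MT2/T618I, 23.1 to 30.7 CPM in Asxl1-MT2/Empty, 1.73 to 2.67 CPM in Empty/T618I and 26.2 to 30.2 CPM in Empty/Empty, with Ms4a1 and Pax5 at 0 in all.

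Lists of myeloid cells moved with the groups. The mast cell and basophil list, with 12 genes, summed to 2865 to 3108 CPM in Asxl1-MT2/T618I, 1065 to 1132 CPM in Asxl1-MT2/Empty, 3071 to 5377 CPM in Empty/T618I and 1511 to 1680 CPM in Empty/Empty, where Fcer1a was at 0. The mature neutrophil list, with 9 of 10 genes in the table, summed to 15845 to 24980 CPM in Asxl1-MT2/T618I, 1295 to 1740 CPM in Asxl1-MT2/Empty, 3680 to 4580 CPM in Empty/T618I and 1215 to 1651 CPM in Empty/Empty. The monocyte and macrophage list, with 10 genes, summed to 473 to 632 CPM in Asxl1-MT2/T618I, 335 to 383 CPM in Asxl1-MT2/Empty, 204 to 221 CPM in Empty/T618I and 269 to 286 CPM in Empty/Empty. The stromal and endothelial list, with 8 genes, summed to 206 to 255 CPM in Asxl1-MT2/T618I, 329 to 355 CPM in Asxl1-MT2/Empty, 235 to 271 CPM in Empty/T618I and 280 to 309 CPM in Empty/Empty. Of these genes only 3, Col1a1, Pdgfrb and Pecam1, passed the low-count filter. Cdh5 was at 0 in all libraries, Dcn in all groups but Empty/T618I and Cxcl12 in all groups but Empty/Empty. The 8 dendritic cell genes summed to at most 8.49 CPM in any library. The summed monocyte level was lowest in Empty/T618I, as was Tnfrsf1b. By gene, 4 of 9 tested monocyte markers rose there against Empty/Empty and 2 fell (Ly6c2 and Irf8), beside 17.6% and 15.9% of all genes. Their median log2 fold change was 0.51. The interaction test called 7 of 9 monocyte, 9 of 9 neutrophil and 0 of 12 mast cell markers as positive, beside 14.1% of all genes. Tnfsf9, Tnfsf14 and Tnfrsf18 were high in the same groups as the mast cell and basophil list and the mature neutrophil list, the groups in which the progenitor list was low. In Empty/T618I against Empty/Empty, 10 of 12 mast cell and 9 of 9 neutrophil markers rose, beside 17.6% of all genes. The same counts held in Asxl1-MT2/T618I against Asxl1-MT2/Empty, beside 26.9% of all genes, and Kit fell in both. In Asxl1-MT2/T618I against Empty/T618I, 1 mast cell marker rose and 7 fell, and 9 of 9 neutrophil markers rose. Among all genes 25.4% rose and 18.5% fell there, and Tnfsf9, Tnfsf14 and Tnfrsf18 did not pass. The part of these cells in the results was not tested.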

How the data were processed

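RNA of 12 libraries in 4 groups was analysed from 1 table of raw counts per gene symbol, deposited by the authors. The submitters' processing notes name mm10, Trimmomatic, STAR and DESeq2; the counter, its annotation and strand setting are not given in the sources used here. RNA was taken with a Qiagen RNeasy kit and libraries were made by BGI, per the labels' protocols. Columns carry letters A to C and titles numbers, which nothing links, so groups came from the titles.

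Members and lists were chosen with earlier results of these data known. Counts were scaled with TMM, filtered with filterByExpr (11578 symbols kept) and fitted as 4 group means over all libraries with edgeR 4.0.16 (R 4.3.3) quasi-likelihood tests; p-values were Benjamini-Hochberg adjusted over all genes tested and called under 0.05. Precision follows from 9341984 to 10252291 counts per library, and 3 counts, the limit that 0 allows, come to 0.286 to 0.318 CPM in a single library. RPKM used GENCODE M21 exon lengths (GRCm38). All members were named, with every library's level where called; other pathway genes were named where called with a log2 fold change of 1 or more in size. Alternatives were RLE scaling, DESeq2 1.42.0, no filter, fits of the compared groups, a replicate block and libraries left out. The fit was tested on simulated data.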

Additional observations from a re-analysis of the deposited data

Results flagged for a closer look

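In 12 named genes the change with Asxl1-MT2 in T618I cells (Asxl1-MT2/T618I against Empty/T618I) differed from the change without T618I (Asxl1-MT2/Empty against Empty/Empty), by edgeR's interaction test with Benjamini-Hochberg adjustment over all genes, of which 19.6% were called. The pathway genes among the 12 were named for calls in comparisons of these same libraries, so the 12 cannot be read against that share. Over the whole lists, the interaction test called 6 of 30 tested signalling genes (20%) and 2 of 10 inhibitors (20%), all positive. Among all genes 14.1% were positive and 5.51% negative. The differences below are on the log2 scale, and each was positive. Among the receptors with Tnfrsf symbols they were 1.43 for Tnfrsf23, 0.92 for Tnfrsf1b, 0.68 for Tnfrsf1a and 0.37 for Tnfrsf21. Among family genes with other symbols they were 2.68 for Ltb, 1.57 for Tnf and 0.71 for Relt. Among pathway genes they were 1.76 for Relb, 1.40 for Nfkbia, 0.95 for Map3k14, 0.82 for Birc3 and 0.77 for Map3k5. With 1 library left out the call of Tnfrsf21 was lost in 6 of 12 fits, as given above, and that of Map3k14 also in 6 of 12 (edgeR adjusted p up to 0.0675), without Empty/Empty B, Empty/T618I A or B, Asxl1-MT2/Empty B or C or Asxl1-MT2/T618I A. That of Ltb was lost without Empty/Empty A (edgeR adjusted p = 0.0501). Groups of 3 libraries are too small to look for single outlying libraries.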

How the results depend on the processing

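Members called in Empty/T618I against Empty/Empty numbered 8, and 8 to 10 over 18 alternatives (8 to 9 with 1 library left out). In Asxl1-MT2/Empty against Empty/Empty the count of 0 became 1 with DESeq2 (Tnfrsf26) and 1 without the letter C libraries (Tnfrsf14), and stayed 0 with any 1 library left out. In Asxl1-MT2/T618I the count was 5 against Empty/T618I (4 to 6) and 14 against Asxl1-MT2/Empty (13 to 15), and 4 in the interaction (3 to 4). Of 18 correlations of same-letter deviations (-0.0606 to 0.22), 7 were over 0.1, all of letter A or C. Whether the column letters pair the libraries was not settled. With the letter as a replicate block the member counts were 8, 0, 5, 14 and 4. More of all genes were then called in every comparison. They were 4285 instead of 3878 in Empty/T618I against Empty/Empty, and 317 instead of 215 in Asxl1-MT2/Empty against Empty/Empty. Of 554 alternative values for the 31 called member values, 535 kept direction and call, 19 lost the call and 0 reversed.

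The count of all genes called in Asxl1-MT2/Empty against Empty/Empty was 215, and 60 without Asxl1-MT2/Empty A, 106 without Asxl1-MT2/Empty B, 101, 104 and 136 without Empty/Empty A, B and C, 359 with no low-count filter and 386 without letter C. Relb in Empty/T618I against Empty/Empty lost its call in 6 of 12 fits with 1 library left out and with DESeq2 (adjusted p up to 0.126), Map3k14 without Empty/T618I C (edgeR adjusted p = 0.0701), and Map3k5 in Asxl1-MT2/Empty against Empty/Empty without Asxl1-MT2/Empty A (edgeR adjusted p = 0.0574). The causes were not tested. Depth limits Tnfrsf25, Tnfrsf8, Tnfsf4 and the members under 30 counts in all.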
